A study of Mus musculus with 192 samples.

Results

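The activator protein 1 (AP-1) family and its relatives, as 10 genes, were followed through 64 groups of mouse dendritic cells: Fos, Fosl2, Jun, Junb, Jund, Atf3, Batf, Batf2, Batf3 and Maff. They were taken by name as 10 of the 23481 gene rows of the deposited table of unique molecular identifier (UMI) counts, and all 10 were among the 4720 genes with enough counts to be tested. The cells were bone marrow-derived dendritic cells from female C57BL/6J mice aged 6 to 8 weeks, grown with the growth factor GM-CSF at 15 ng/mL, which every group including the controls received. Each well held 100000 cells and was stimulated for 6 h with ligands of pattern recognition receptors, the sensors through which innate immune cells detect microbes. The 7 ligands were PAM, LPS (lipopolysaccharide), HMW, Zymosan (labelled as zymosan depleted), SeV, cGAMP (labelled as 3',3'-cGAMP, a cyclic dinucleotide) and CpGB. They were given alone (7 groups), as every pair (21 groups) or as every triplet (35 groups), and the group Ctrl received none. Each group had 3 libraries, 192 in all. The labels state no doses, and they do not say whether the 3 libraries of a group came from separate mice or cultures, so that p-values measure the spread between these libraries, which may be technical.

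AP-1 is a dimer of basic leucine zipper (bZIP) proteins. A Jun protein pairs with another Jun, a Fos, an Atf or a Batf protein through the leucine zipper, and the adjoining basic regions grip a short DNA element. Innate receptors feed this family through mitogen-activated protein kinases and NF-kappaB: the kinases phosphorylate proteins already present and switch on Fos and Jun as immediate-early genes, whose transcripts usually peak well before the time sampled here. In dendritic cells Batf proteins also bind together with interferon regulatory factors, and Batf3 is known for its part in the development of cross-presenting dendritic cells.

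The promoters of the members that differed most between ligands are shown because the same ligands moved some members up and others down. The 250 bases before the annotated start were taken from RefSeq (GRCm38.p6), which gave windows for 9 of the 10 members, all but Batf2. Both strands were searched for the AP-1 element TRE (TGACTCA), a TRE-like element (TGACATCA), the cyclic AMP element CRE (TGACGTCA), the interferon-stimulated response element ISRE (GAAANNGAAA), the kappaB element and the CArG element. Capitals mark the matches, and sequences run 5′ to 3′ on the strand of the gene.
Fos: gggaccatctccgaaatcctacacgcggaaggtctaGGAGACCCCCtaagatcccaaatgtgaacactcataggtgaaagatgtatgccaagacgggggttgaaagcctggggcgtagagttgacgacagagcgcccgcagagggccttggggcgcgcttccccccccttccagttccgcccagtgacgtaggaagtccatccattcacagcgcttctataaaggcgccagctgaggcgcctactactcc
Batf: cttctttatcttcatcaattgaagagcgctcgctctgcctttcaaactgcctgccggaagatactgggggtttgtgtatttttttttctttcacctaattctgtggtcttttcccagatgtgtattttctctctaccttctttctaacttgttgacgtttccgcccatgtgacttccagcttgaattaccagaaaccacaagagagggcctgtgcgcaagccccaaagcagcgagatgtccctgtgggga
Jun: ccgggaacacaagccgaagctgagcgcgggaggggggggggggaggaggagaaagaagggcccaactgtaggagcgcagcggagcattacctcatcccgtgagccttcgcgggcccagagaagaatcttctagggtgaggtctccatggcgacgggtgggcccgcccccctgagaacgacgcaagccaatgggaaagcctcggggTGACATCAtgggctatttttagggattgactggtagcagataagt
Fosl2: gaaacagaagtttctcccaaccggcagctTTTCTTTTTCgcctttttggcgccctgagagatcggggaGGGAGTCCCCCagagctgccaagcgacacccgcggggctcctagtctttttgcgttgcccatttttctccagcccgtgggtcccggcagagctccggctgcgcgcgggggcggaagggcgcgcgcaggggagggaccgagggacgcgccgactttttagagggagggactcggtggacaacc
Maff, start 2: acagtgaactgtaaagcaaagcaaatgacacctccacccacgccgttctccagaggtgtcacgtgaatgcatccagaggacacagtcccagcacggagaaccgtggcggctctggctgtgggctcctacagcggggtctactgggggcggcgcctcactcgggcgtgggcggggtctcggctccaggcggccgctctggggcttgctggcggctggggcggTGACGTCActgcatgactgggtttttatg
Maff, start 3: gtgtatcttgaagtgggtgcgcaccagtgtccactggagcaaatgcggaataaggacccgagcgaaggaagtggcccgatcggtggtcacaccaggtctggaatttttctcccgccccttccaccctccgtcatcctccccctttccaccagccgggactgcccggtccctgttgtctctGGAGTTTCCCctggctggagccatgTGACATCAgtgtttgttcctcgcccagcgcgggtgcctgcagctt
The Fos window (chr12:85473640-85473889, plus strand) holds a kappaB match on the opposite strand at bases -214 to -205 from the start. The Batf window (chr12:85686470-85686719, plus strand), on the same chromosome, holds no match to any of the 6 motifs. In the Jun window (chr4:95052223-95052472, minus strand) a TRE-like match lies at bases -45 to -38. The Fosl2 window (chr5:32136222-32136471, plus strand) has an ISRE match on the opposite strand at -221 to -212 and, from -182 to -172, a pair of kappaB matches on opposite strands that overlap and are capitalised as 1 run. Maff has 3 starts in RefSeq. Start 2 (chr15:79347270-79347519, plus strand) has a CRE match at -29 to -22, and start 3 (chr15:79348152-79348401, plus strand) has a kappaB match on the opposite strand at -70 to -61 and a TRE-like match at -45 to -38. No match was found in the windows of Junb, Jund, Atf3 or Batf3, nor at start 1 of Maff. Of 32851 promoter windows of this length, 4.46% hold the TRE, 2.93% the TRE-like element, 1.55% the CRE, 2.98% the ISRE, 3.9% the kappaB element and 1.47% the CArG element, and a match describes only the letters present.

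Library totals ran from 46564 to 610234 UMIs with a median of 171616.5, and the Ctrl libraries were shallow, at 73431 ± 14389 UMIs (mean ± SD, n = 3). Levels are counts per 1000000 UMIs (CPM) scaled with TMM factors, which adjust for composition. Atf3 and Junb were measured most firmly, with medians of 111 and 85.5 UMIs a library, whereas Fos (3.5), Batf3 (3), Jun (5) and Maff (6) rested on few UMIs and were at 0 in 11, 14, 7 and 2 of the 192 libraries. All 9 dendritic cell markers had counts, with a summed level of 6447 CPM in Ctrl, the lowest of the 64 groups, and up to 9179 CPM. The 5 macrophage markers in the table summed to 11799 CPM in Ctrl, the highest group, and to as little as 6226 CPM, neutrophil markers to between 458 and 918 CPM and plasmacytoid dendritic cell markers to between 21.2 and 232 CPM. Markers of T, B, NK, mast and erythroid cells were at 0 in Ctrl and summed to at most 18.7 CPM anywhere. Several of these markers respond to the ligands themselves, the part of cell composition in the results below was not tested, and in these bulk libraries fewer cells of a type and less RNA per cell cannot be told apart. Junb overlaps Prdx2, Jun overlaps Junos, Jund overlaps Gm11175, Atf3 overlaps Gm24748 and Batf2 overlaps Arl2 on the opposite strand, and Batf2 also holds n-R5s19 and the pseudogene Gm5510 on its own strand; whether the counting used the strand is not stated, so values of these members carry that uncertainty, and the overlaps of Batf2 on its own strand do not depend on the strand setting.

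With 1 ligand alone, a member was called when edgeR's quasi-likelihood test gave a Benjamini-Hochberg adjusted p under 0.05 over all 4720 genes and the log2 fold change against Ctrl was 1 or more in size; adjusted p and log2 fold change have this meaning throughout. LPS changed 6 of the 10 members, where 24.2% of all genes tested were called in either direction, PAM changed 5 (13.9% of all genes) and CpGB changed 5 (17%). SeV changed 2 (15.6%), cGAMP 2 (17.6%) and Zymosan 1 (6.25%). HMW changed none (0.975% of all genes), and no member had an unadjusted p under 0.05 with HMW or was called there by DESeq2. All of these comparisons, and those of the pairs and triplets with Ctrl, share the same 3 Ctrl libraries.

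**Figure D1:**
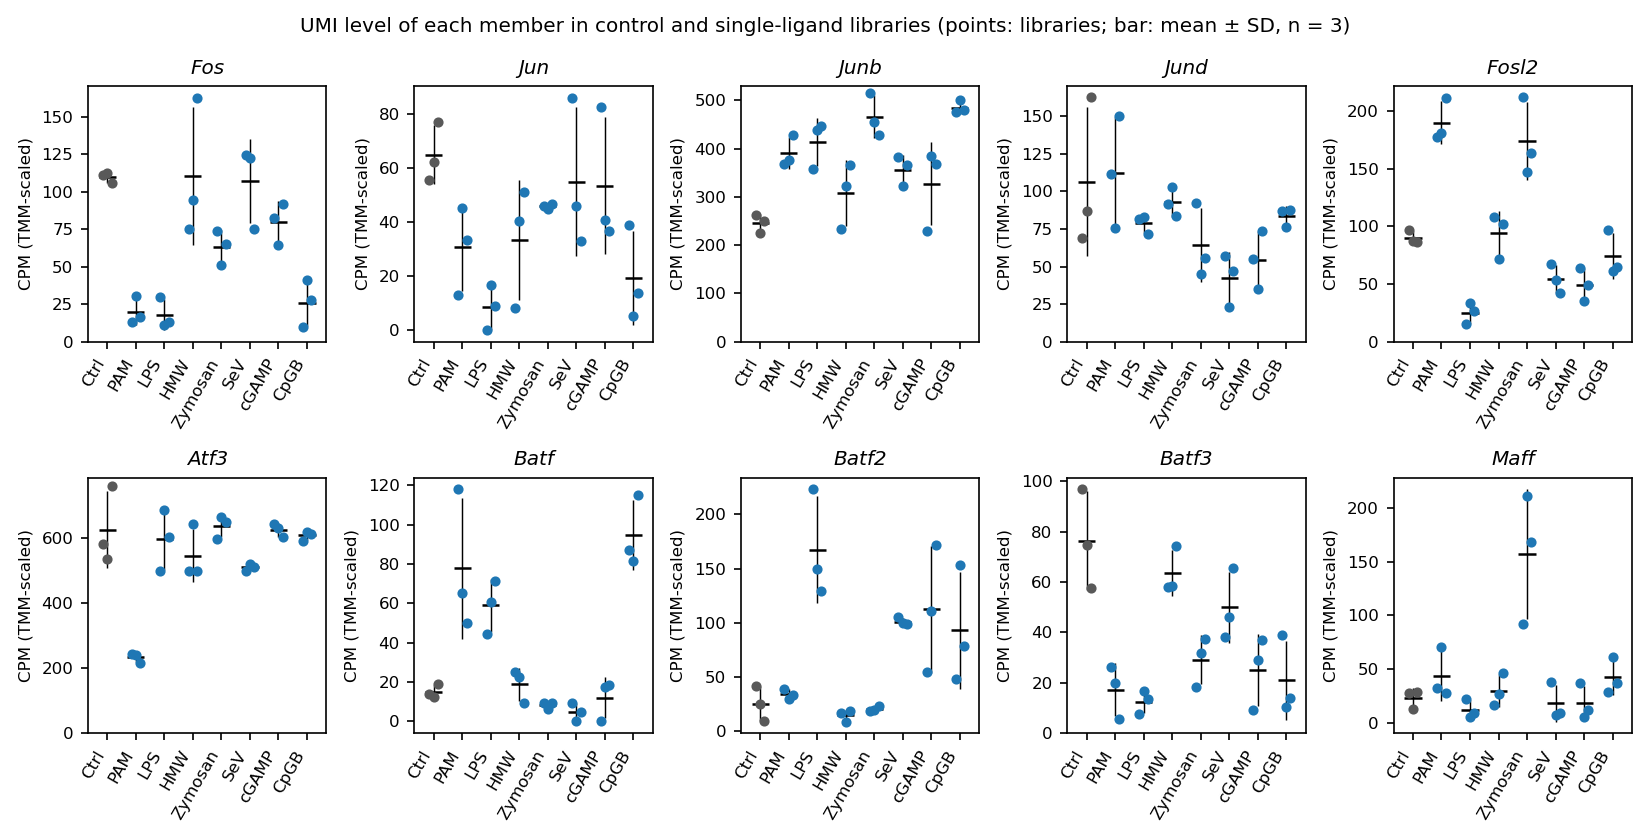
Level of each of the 10 genes in the Ctrl and single-ligand libraries, in TMM-scaled CPM; each point is 1 library, the bar is the mean and the vertical line ± 1 SD over 3 libraries. Fos lies between 9.70 and 40.8 CPM with PAM, LPS and CpGB, under every Ctrl library, Maff stands high with Zymosan, and Atf3 stands low with PAM.

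Fos encodes the immediate-early partner of the Jun proteins, and its locus is chr12:85473890-85477273 (GRCm38). Its level in the 3 Ctrl libraries was 111, 112 and 106 CPM (28 UMIs in all). With PAM it was 13.1, 30.2 and 16.7 CPM, with LPS 29.8, 11.1 and 13.4 CPM and with CpGB 9.70, 40.8 and 27.7 CPM. Every one of these 9 libraries lay below every Ctrl library. Fos fell with LPS (log2 fold change -2.65, SE 0.53, adjusted p = 1.13e-05), with PAM (-2.36, SE 0.51, adjusted p = 9.03e-05) and with CpGB (-1.90, SE 0.48, adjusted p = 0.001). With the other ligands it was nearer to the control, at 74.8, 94.2 and 163 CPM with HMW, 124, 123 and 75.0 CPM with SeV and 82.5, 64.3 and 92.1 CPM with cGAMP, of which those with HMW and SeV overlapped Ctrl and those with cGAMP lay under it without a call. With Zymosan the 3 libraries, at 73.6, 51.2 and 65.3 CPM, lay under Ctrl, but the log2 fold change of -0.79 was not called (adjusted p = 0.284). In order of mean level the single groups form an upper set from HMW to Zymosan, whose neighbours overlap, and a lower set of CpGB, PAM and LPS, whose neighbours overlap too, with no overlap between Zymosan and CpGB.

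Fosl2 encodes Fra-2, a Fos relative without the strong activation domain of Fos (chr5:32135801-32157842). With single ligands it was the only member called in both directions. The Ctrl libraries had 97.0, 87.3 and 86.4 CPM, those with PAM 177, 181 and 211 CPM and those with LPS 14.9, 33.3 and 26.8 CPM. All PAM libraries were above and all LPS libraries below the controls, and Fosl2 rose with PAM (log2 fold change 1.08, SE 0.33, adjusted p = 0.0122) and fell with LPS (-1.76, SE 0.48, adjusted p = 0.00176). Zymosan gave 212, 147 and 163 CPM, also above every control, with a log2 fold change of 0.92 that was not called (adjusted p = 0.0757). The call with PAM was lost without Ctrl replicate 3 (adjusted p = 0.0613) and without PAM replicate 3, where the fold change met no threshold of size (log2 fold change 1.00 after rounding, adjusted p = 0.0467). It was also not called with RLE factors (log2 fold change 0.94), library size alone (0.89) or DESeq2 (adjusted p = 0.0838). Without replicate 3 of every group the PAM call (0.15) and without replicate 1 the LPS call (0.0591) were lost.

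Jun encodes c-Jun, which can pair with itself or with a Fos protein (chr4:95049034-95052222). Control libraries held 55.4, 62.4 and 76.8 CPM (17 UMIs), LPS libraries 0, 16.6 and 8.95 CPM (5 UMIs) and CpGB libraries 38.8, 5.11 and 13.8 CPM. The LPS library at 0 allows up to 22.3 CPM, the level of 3 UMIs, which covers counting error only. All LPS and all CpGB libraries were under the controls, and Jun fell with LPS (log2 fold change -2.74, SE 0.70, adjusted p = 0.000914) and with CpGB (-2.02, SE 0.65, adjusted p = 0.0128). With PAM the libraries, at 13.1, 45.2 and 33.3 CPM, were also under the controls, but the log2 fold change of -1.04 was not called (adjusted p = 0.222). The CpGB call was lost without Ctrl replicate 3 (adjusted p = 0.114), CpGB replicate 2 (0.136) or CpGB replicate 3 (0.0673), and without replicate 2 (0.216) or replicate 3 (0.177) of every group. It was not called either when no filter on low counts was used (0.0592).

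Junb, a Jun protein that activates more weakly than c-Jun at simple AP-1 sites (chr8:84974484-84978718), moved little but in 1 direction. Its level was 263, 225 and 249.6 CPM in Ctrl, 476, 500.4 and 479.6 CPM with CpGB and 515, 454 and 429 CPM with Zymosan. Neither ligand's libraries overlap the controls. Log2 fold changes ran from 0.37 with HMW to 0.98 (SE 0.22, adjusted p = 0.000206) with CpGB, so that no single ligand met the fold threshold, although the adjusted p was under 0.05 with PAM, LPS, Zymosan and CpGB. Without any 1 of the Ctrl or CpGB libraries the CpGB value passed the threshold, at 1.04 to 1.13, and without Zymosan replicate 3 the Zymosan value did too, at 1.00. With no filter on low counts both passed, at 1.17 and 1.02. Prdx2, which overlaps it on the opposite strand, was not called with any single ligand (log2 fold changes of -0.43 to 0.36).

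Jund, usually the most constant of the Jun genes (chr8:70698949-70700616), was measured at 69.3, 87.3 and 163 CPM in Ctrl, 57.3, 23.0 and 46.9 CPM with SeV and 55.0, 35.1 and 73.7 CPM with cGAMP. The SeV libraries lay below the controls, whereas those with cGAMP overlapped them. It fell with SeV (log2 fold change -1.39, SE 0.42, adjusted p = 0.00857) and with cGAMP (-1.04, SE 0.40, adjusted p = 0.0445). Both calls were lost without Ctrl replicate 3, the highest control: without it the adjusted p was 0.367 for SeV and 0.613 for cGAMP. The SeV call was also lost without SeV replicate 2 (0.0795), and the cGAMP call without Ctrl replicate 2 (0.0622), cGAMP replicate 1 (0.0971) or cGAMP replicate 2 (0.298). With no filter on low counts the adjusted p was 0.0771 for SeV and 0.264 for cGAMP. Without replicate 2 or 3 of every group it was 0.0988 and 0.331 for SeV, and without replicate 1, 2 or 3 it was 0.0732, 0.274 and 0.368 for cGAMP.

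Atf3 is a stress-induced bZIP factor known to restrain cytokine genes downstream of Toll-like receptors (chr1:191170296-191218039). Without ligand it was at 582, 536 and 759 CPM. PAM brought it to 243, 241 and 217 CPM, below every library of Ctrl and of the other 6 ligands. Atf3 fell with PAM (log2 fold change -1.44, SE 0.19, adjusted p = 1.32e-10). With the other 6 ligands the group means ran from 509.8 CPM with SeV to 637 CPM with Zymosan, which had 598, 666 and 648 CPM in its libraries, and neighbouring groups in that order overlapped.

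Batf encodes a bZIP protein without an activation domain that pairs with Jun proteins and binds beside interferon regulatory factors (chr12:85686669-85709087). It was close to its detection limit without ligand, at 13.9, 12.5 and 19.2 CPM (4 UMIs). It reached 87.3, 81.7 and 115 CPM with CpGB, 118, 65.4 and 50.0 CPM with PAM and 44.7, 61.0 and 71.6 CPM with LPS. All 9 of these libraries exceeded every Ctrl library. Batf rose with CpGB (log2 fold change 2.58, SE 0.62, adjusted p = 0.000468), PAM (2.23, SE 0.65, adjusted p = 0.00634) and LPS (1.92, SE 0.67, adjusted p = 0.0196). HMW, Zymosan, SeV and cGAMP gave group means of 4.75 to 18.9 CPM, and 1 library each of cGAMP and SeV was at 0, which allows up to 27.5 and 23.0 CPM. The LPS call was lost without Ctrl replicate 1 (adjusted p = 0.0513), Ctrl replicate 2 (0.0569) or LPS replicate 3 (0.0581), and the PAM call without PAM replicate 1 (0.056). The LPS call was also lost with library size alone (0.0533) and with DESeq2 (0.0713), and without replicate 2 (0.0868) or replicate 3 (0.108) of every group. The PAM call was lost too without replicate 1 of every group (0.112).

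Batf2, an interferon-inducible relative of Batf (chr19:6140983-6172476), answered another set of ligands. It was at 41.6, 24.9 and 9.60 CPM in Ctrl (6 UMIs), 223, 149.6 and 129.8 CPM with LPS and 105, 99.6 and 98.5 CPM with SeV. It was at 55.0, 111 and 172 CPM with cGAMP and 48.5, 153 and 78.4 CPM with CpGB. The libraries of these 4 ligands all lay above the controls. Batf2 rose with LPS (log2 fold change 2.75, SE 0.45, adjusted p = 9.34e-08), cGAMP (2.30, SE 0.49, adjusted p = 7.16e-05), SeV (2.07, SE 0.51, adjusted p = 0.000891) and CpGB (2.06, SE 0.50, adjusted p = 0.00057). With PAM, Zymosan and HMW it had 39.4, 30.2 and 33.3 CPM, 18.4, 19.2 and 23.3 CPM and 16.6, 8.97 and 18.6 CPM, all within or near the range of the controls. The calls with SeV (adjusted p = 0.0704) and cGAMP (0.115) were lost without replicate 3 of every group, and that with CpGB without replicate 2 (0.0874). The overlapping gene Arl2 stayed between 1.56 and 17.0 CPM in group mean.

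Batf3, the factor known from cross-presenting dendritic cells (chr1:191097847-191108945), was highest in Ctrl, at 97.0, 74.8 and 57.6 CPM. It was at 7.44, 16.6 and 13.4 CPM with LPS, 38.8, 10.2 and 13.8 CPM with CpGB and 26.2, 20.1 and 5.56 CPM with PAM. These libraries were all below the controls, and Batf3 fell with LPS (log2 fold change -2.46, SE 0.67, adjusted p = 0.00193), PAM (-2.09, SE 0.64, adjusted p = 0.011) and CpGB (-2.03, SE 0.64, adjusted p = 0.0119). With cGAMP the log2 fold change of -1.45 was not called (adjusted p = 0.0745). The PAM call was lost without Ctrl replicate 1 (adjusted p = 0.07) or PAM replicate 3 (0.085), and the CpGB call without Ctrl replicate 1 (0.083), CpGB replicate 2 (0.0992) or CpGB replicate 3 (0.0799). With no filter on low counts the CpGB call was lost too (0.0567), whereas the fall with cGAMP was called with RLE factors (0.0463) and library size alone (0.0286). Without replicate 1, 2 or 3 of every group the PAM call was lost (0.0593, 0.0724 and 0.0999), as were the LPS call without replicate 1 (0.0548) and the CpGB call without replicate 2 (0.183) or replicate 3 (0.0877).

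Maff encodes a small Maf protein, a bZIP partner without an activation domain that pairs with the Nrf family of stress regulators (chr15:79346621-79359076). It was at 27.7, 12.5 and 28.8 CPM in Ctrl (6 UMIs) and at 92.0, 211 and 168 CPM with Zymosan. Every Zymosan library was above every Ctrl library and above every library of the other single ligands. Maff rose with Zymosan (log2 fold change 2.76, SE 0.55, adjusted p = 5.58e-05). The other 6 ligands gave group means of 12.3 ± 8.88 CPM (LPS) to 43.7 ± 23.3 CPM (PAM), which overlap from neighbour to neighbour, and none was called. When each library was thinned at random to the lowest total, with the same 4720 genes tested, 7 of the 21 calls of the 10 genes with single ligands were kept, and all 21 log2 fold changes kept their sign. Those kept were Atf3 with PAM, Fos, Jun and Batf2 with LPS, Maff with Zymosan, Batf2 with cGAMP and Batf with CpGB. Batf2 with CpGB went to a log2 fold change of 0.74 (adjusted p = 0.667).

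Across all 63 conditions, the 10 members gave 159 higher calls among 630 tests (25.2%, where 14.3% of all gene tests were called higher) and 147 lower calls (23.3%, against 9.03% of all gene tests). Batf2 rose in 58 conditions, with all 35 triplets and 19 of the 21 pairs among them. Batf rose in 43 and Junb in 41, of which 29 were triplets and none a single ligand, and Maff rose in 15. Fos fell in 49 conditions, Batf3 in 46, Fosl2 in 24, Jun in 20 and Jund in 7. Junb had a positive fold change in all 63 conditions and Batf3 a negative one in all 63, with or without a call. Atf3 was called in 1 condition only, PAM alone, and Fosl2 rose in 2, PAM alone and 1 triplet.

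**Figure D2:**
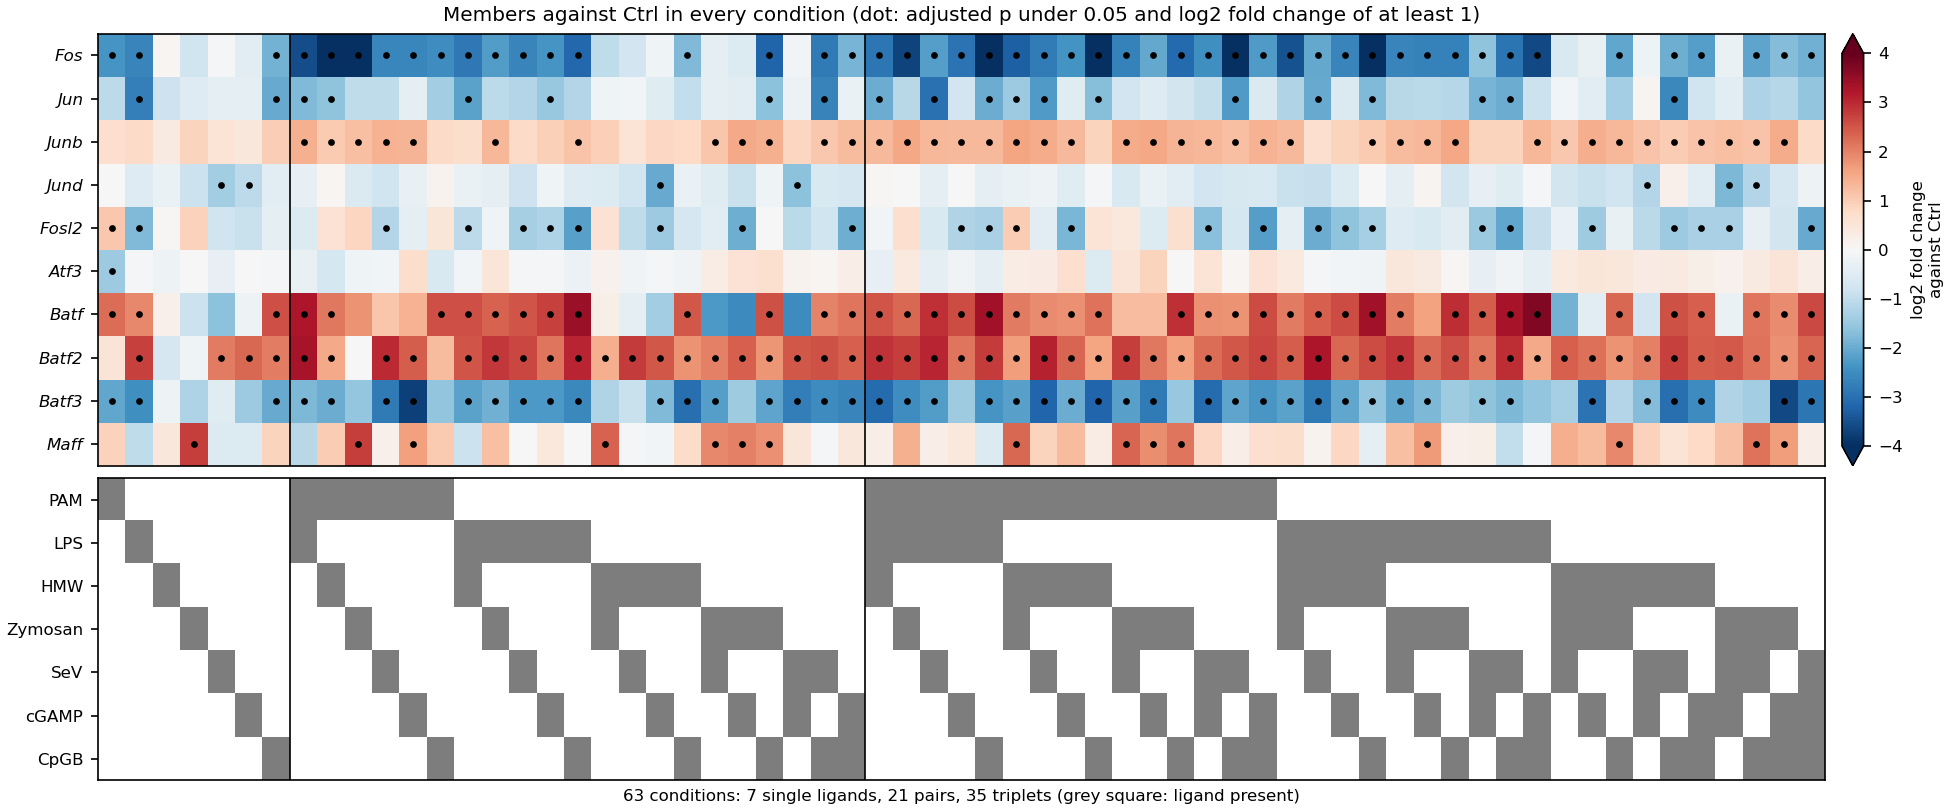
Log2 fold change against Ctrl of each of the 10 genes (rows) in the 63 conditions (columns); black dots mark calls, and grey squares show which ligands a condition holds. The 49 dots of Fos all mark falls, and the 43 dots of Batf and the 58 of Batf2 all mark rises.

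Several of these counts moved with the depth, the libraries or the filter used. With every library thinned to the lowest total and the same genes tested, Batf2 rose in 30 conditions in place of 58, Batf in 19 in place of 43, Junb in 25 in place of 41 and Maff in 5 in place of 15. Fos then fell in 27 in place of 49, Batf3 in 14 in place of 46, Jun in 4, Jund in 0 and Fosl2 in 0, with 1 higher. With the filter applied again after thinning, Junb rose in 3, Batf2 in 31, Batf in 20 and Maff in 5, and Fosl2 fell in 9. Without Ctrl replicate 3, Jun was called lower in 6 conditions in place of 20, Jund in 0 in place of 7 and Fosl2 in 15 in place of 24, with 1 in place of 2 higher. Jund was called lower in 11 without Ctrl replicate 1. Without replicate 1, 2 or 3 of every group Jun was called lower in 12, 7 and 9 conditions, Fosl2 in 8 without replicate 1 and 15 without replicate 2, and Jund in 3 without replicate 2 and 0 without replicate 3. With no filter on low counts Jun was called lower in 10, Jund in 3 and Fosl2 in 11. Batf3 was called lower in 25 conditions without replicate 1 of every group and in 29 without replicate 2, in place of 46, and Maff higher in 8 and 7, in place of 15, without replicate 2 or replicate 3 of every group. Scaling by library size alone, which shifts the median gene's log2 fold change by -0.36 relative to TMM (RLE factors and DESeq2 shift it by -0.16), gave 11 conditions for Junb, 33 for Jun and 24 for Jund. RLE factors and DESeq2 each gave 11 for Jund and, as did library size alone, 0 in place of 2 higher calls for Fosl2.

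Group means of Fos and of Batf separated by whether PAM, LPS or CpGB was present, a division chosen after the values were seen. How many of all genes this division also separates was not counted. In the 15 groups with none of these ligands Fos group means ran from 52.6 to 111 CPM, and in the 49 groups with at least 1 of them from 2.97 to 35.5 CPM. For Batf the same division gave 1.60 to 20.7 CPM and 35.7 to 212 CPM. The group means did not overlap in either gene, though single libraries did: the highest Batf library without these ligands had 29.5 CPM and the lowest with them 14.0 CPM. The correlation of the 64 group means of log2 CPM between Fos and Batf was -0.83, a description over groups that share ligands, controls and a span of depth. The highest Batf groups were LPS + cGAMP + CpGB, at 241, 191 and 205 CPM, and LPS + CpGB, at 128, 221 and 179 CPM. Every library of both groups was above every library with PAM, LPS or CpGB alone. Both groups were named because they were highest, which favours such a gap. By the rule for pairs given below, LPS + CpGB was not called above both singles (smaller log2 fold change 0.89, adjusted p = 0.165). The triplet was not called above all its pairs (smallest log2 fold change 0.24).

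**Figure D3:**
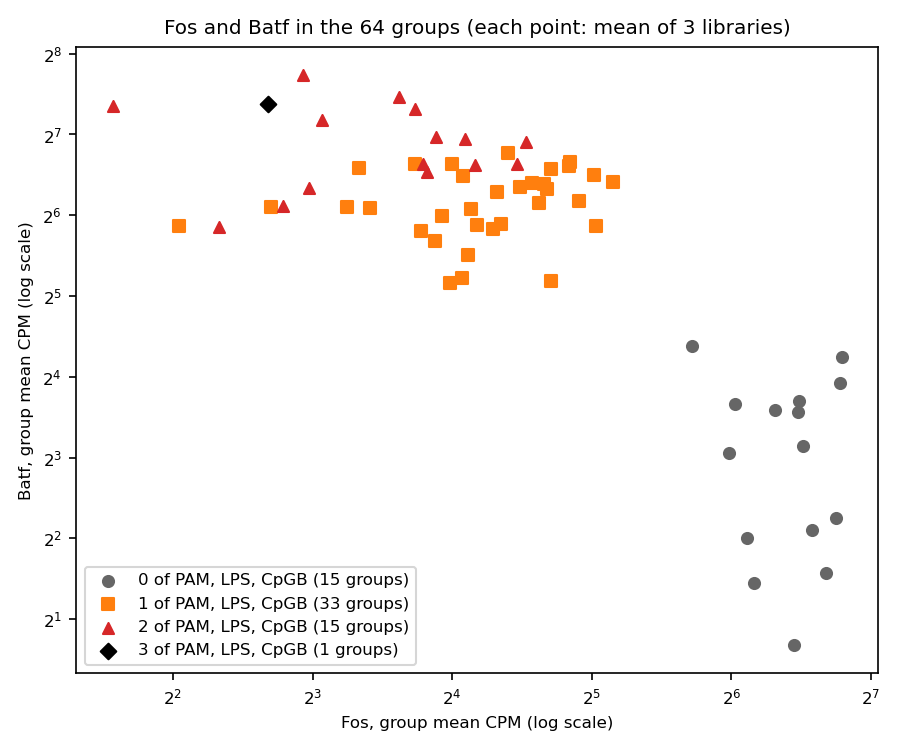
Group mean level of Fos (horizontal) and of Batf (vertical) in the 64 groups, in TMM-scaled CPM on log2-spaced axes; each point is the mean of 3 libraries, and its shape gives how many of PAM, LPS and CpGB the group received. The 15 groups with none of them sit at the right and low, with Batf at or under 20.7 CPM, and the 49 others at the left and high.

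Adding 1 ligand to a background that lacks it gave 22 matched comparisons per ligand (Ctrl, 6 single ligands and 15 pairs), 154 in all, which share groups and are not independent. Among 1540 member tests 102 were called higher (6.62%, against 3.28% of all gene tests) and 79 lower (5.13%, against 1.65%). Both counts were smaller with thinned libraries, and the lower calls were fewer without 1 replicate number in every group, as the closing section gives. The backgrounds were divided by the ligands they hold after the values were seen. PAM lowered Fos in 11 of the 11 backgrounds without LPS or CpGB and in 0 of the 11 with either, where 1.67% of all gene tests with PAM were lower. LPS lowered it in 10 of 11 backgrounds without PAM or CpGB and in 1 of 11 with either (3.78% of all gene tests), and CpGB in 8 of 11 and 0 of 11 (1.42%). Fos was already low in backgrounds with another of these ligands, with 2 UMIs over the 3 libraries of PAM + Zymosan, and the difference between both kinds of background was not tested.

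Batf moved in the opposite direction. LPS raised it in 11 of 11 backgrounds without PAM or CpGB and in 4 of 11 with either (6.09% of all gene tests with LPS were higher). CpGB raised it in 11 of 11 without PAM or LPS and in 1 of 11 with either (2.65%), and PAM in 10 of 11 without LPS or CpGB and in 1 of 11 with either (2.68%). Batf2, divided in the same way by LPS, SeV, cGAMP and CpGB, was raised by LPS in 6 of 7 backgrounds without the other 3 and in 1 of 15 with any. SeV raised it in 6 of 7 and 1 of 15 (2.93% of all gene tests), cGAMP in 5 of 7 and 1 of 15 (5.65%), and CpGB in 4 of 7 and 0 of 15. HMW raised Batf2 in 2 of 22 backgrounds (0.443% of all gene tests). cGAMP lowered Batf2 when added to PAM + LPS (log2 fold change -1.15, SE 0.25, adjusted p = 0.000585) and to LPS + CpGB (-1.51, SE 0.31, adjusted p = 0.000397), where 2.78% of all gene tests were lower. In PAM + LPS the libraries had 173, 235 and 273 CPM and in PAM + LPS + cGAMP 112, 78.6 and 125 CPM, without overlap.

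Maff followed Zymosan through the combinations. The 22 groups with Zymosan had a median group mean of 86.0 CPM and the 42 without it 28.8 CPM, with overlap (up to 78.3 CPM without Zymosan, in PAM + cGAMP). The highest group was PAM + Zymosan, at 211, 177 and 125 CPM. Adding Zymosan raised Maff in 11 of 22 backgrounds (2.51% of all gene tests) with a positive fold change in 22 of 22, and LPS lowered it in 4. Fosl2 was lowered by cGAMP in 8 backgrounds, by LPS in 6 and by SeV in 5 (0.948% of all gene tests), and raised by Zymosan in 4 and by PAM in 2. The largest of these falls came with cGAMP added to Zymosan, from 212, 147 and 163 CPM to 16.3, 19.2 and 29.0 CPM (log2 fold change -2.87, SE 0.39, adjusted p = 1.16e-10), without overlap. SeV added to PAM took Fosl2 from 177, 181 and 211 CPM to 47.0, 25.7 and 49.1 CPM (-2.24, SE 0.35, adjusted p = 3.13e-08), also without overlap. Junb and Atf3 had positive fold changes on the addition of Zymosan in 22 of 22 backgrounds too, but passed the fold threshold in 1 background each.

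Jun and Jund were called in few of the additions. Over all 154, those to Ctrl included, Jund was called higher in 7 and lower in 3, and Jun higher in 1 and lower in 7, where 3.28% of all gene tests were higher and 1.65% lower. On 154 additions that share groups, the counts of Jund are near those shares. The backgrounds described here were chosen after the values were seen, which favours large differences, so the values are given as a description. Jund, whose calls against Ctrl were all lost without 1 control library, was lowest of all groups in HMW + cGAMP, at 19.5, 30.2 and 30.4 CPM, against 91.5, 103 and 83.7 CPM with HMW alone. With CpGB added to HMW + cGAMP it was at 52.5, 62.7 and 122 CPM. The HMW + cGAMP libraries lay below those of both other groups, which overlapped each other. Jun was at 88.7, 61.2 and 42.4 CPM in HMW + SeV and at 19.6, 9.60 and 4.54 CPM when CpGB was added, also without overlap.

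Among the 22 conditions that hold PAM, Atf3 was called lower than Ctrl with PAM alone and in none of the combinations. Some combinations still lay under every Ctrl library without a call. These include PAM + HMW, at 386, 456 and 338 CPM (log2 fold change -0.70), and PAM + CpGB, at 382, 400 and 456 CPM. Over all conditions, 2 pairs and 1 triplet had a negative fold change under the fold threshold with an adjusted p under 0.05. All 63 libraries of the 21 pairs and triplets that hold PAM had more Atf3 (at least 337 CPM, in PAM + LPS) than the highest library with PAM alone (243 CPM). Added to PAM, cGAMP raised Atf3 to 900.0, 1101 and 1066 CPM (log2 fold change 2.13, SE 0.17, adjusted p = 1.11e-25), which is also above every cGAMP library (at most 642 CPM). SeV (1.32, adjusted p = 2.44e-10), Zymosan (1.27, 1.29e-08) and LPS (1.16, 9.03e-09) raised it as well. CpGB (0.82, 0.00469) and HMW (0.74, 0.00327) stayed under the fold threshold. The highest of the 64 groups was PAM + Zymosan + cGAMP, at 1134, 1332 and 1055 CPM, and the lowest was PAM alone. cGAMP raised Atf3 in 4 of 6 backgrounds with PAM and in 0 of 16 without it. The effect of PAM on Atf3 averaged over pair backgrounds minus its effect alone, a contrast added after the values were seen, was 1.49 (SE 0.20, adjusted p = 1.28e-10), and 9.83% of all genes were called in it.

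Averaged over the 22 backgrounds and called at adjusted p under 0.05 with a mean log2 change of 0.5 or more, LPS moved 6 members (26% of all genes were called), PAM 4 (12.4%), Zymosan 3 (12.4%) and CpGB 3 (11.2%). SeV moved 2 (10.5%) and cGAMP 1 (24.6%). The cGAMP count was 2 with RLE factors, library size alone and DESeq2, which added Batf3, and 2 to 4 without 1 replicate number in every group, where Jun, Fos, Batf2 or Batf3 were added. HMW moved 0 (0.381%), with 2 members at an unadjusted p under 0.05 and none by DESeq2. The largest mean rises were those of Batf with LPS, 2.15 (SE 0.11, adjusted p = 4.25e-47), and CpGB, 2.05 (SE 0.11, adjusted p = 3.66e-43), and of Maff with Zymosan, 1.57 (SE 0.11, adjusted p = 9.22e-30). The largest mean falls were those of Fos with PAM, -1.61 (SE 0.15, adjusted p = 2.06e-21), LPS, -1.37 (SE 0.18, adjusted p = 1.60e-12), and CpGB, -1.11 (SE 0.17, adjusted p = 2.76e-09). Batf2 rose with LPS by 0.97 and with SeV by 0.83, Fosl2 fell with cGAMP by 0.96 on the log2 scale and rose with Zymosan by 0.56, and Jun fell with LPS by 0.73 on the log2 scale. Atf3 with Zymosan (0.51) and Fosl2 with PAM (0.50) lay at the threshold and fell under it with other scalings, at 0.46 and 0.38 by library size alone. No average was called for Junb or Jund.

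**Figure D4:**
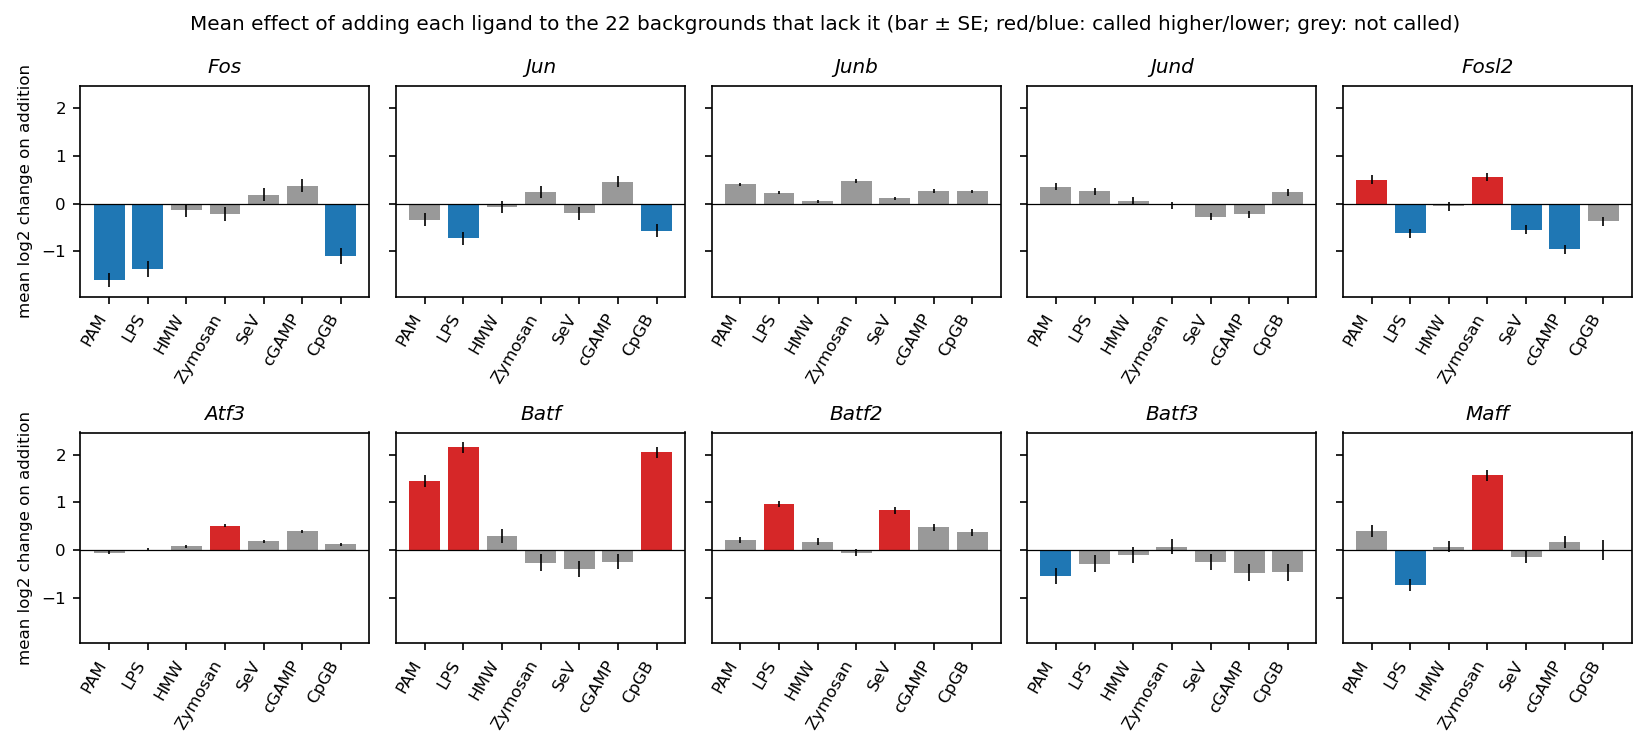
Mean log2 change of each of the 10 genes when a ligand is added to the 22 backgrounds that lack it; bars show the mean, lines ± 1 SE from the fit, red bars were called higher, blue bars lower and grey bars were not called. PAM, LPS and CpGB stand out below 0 for Fos and above 0 for Batf, and Zymosan for Maff.

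Differences between these averages, added after the values were seen, were called by the same rule. Batf did not differ detectably between LPS and CpGB (difference 0.10, SE 0.10, adjusted p = 0.433), whereas PAM raised it less than LPS did (difference -0.71, SE 0.10, adjusted p = 3.20e-10, where 19% of all genes were called). Fos did not differ detectably between PAM and LPS (-0.24, SE 0.21, adjusted p = 0.372). Fosl2 separated PAM from LPS by 1.13 (SE 0.11, adjusted p = 5.95e-19) and Zymosan from cGAMP by 1.52 (SE 0.11, adjusted p = 5.95e-32), where 27% of all genes were called. Maff separated LPS from Zymosan by -2.30 (SE 0.14, adjusted p = 6.85e-40), where 30.3% of all genes were called. Batf2 separated LPS from Zymosan by 1.02 (adjusted p = 1.52e-25), while LPS and SeV differed by 0.14 (0.119), which was not called.

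The effect of a ligand on pairs of other ligands minus its effect alone, the contrast used above for Atf3, was called at a difference of 0.5 or more for 6 members with LPS, 3 with CpGB, 2 with SeV and 1 each with cGAMP and PAM. Of these 13 calls Batf2 made 4, and these contrasts share the Ctrl libraries. LPS raised Batf2 by 2.75 on the log2 scale alone, by a mean of 1.73 when added to single ligands and by 0.55 when added to pairs. The last minus the first was -2.20 (SE 0.48, adjusted p = 0.000128), and 17.7% of all genes were called in that contrast. For cGAMP the 3 values were 2.30, 1.29 and 0.03, with a difference of -2.27 (SE 0.50, adjusted p = 0.000213), where 12.3% of all genes were called. For CpGB they were 2.06, 1.00 and 0.01, with a difference of -2.05 (SE 0.51, adjusted p = 0.00106), where 16.2% of all genes were called. For SeV they were 2.07, 1.45 and 0.50, and the difference of -1.56 (SE 0.53, adjusted p = 0.0341), with 12.3% of all genes called, was lost with DESeq2 (adjusted p = 0.127), RLE factors (0.0534) and library size alone (0.0607). Pair backgrounds more often than single ones hold another of LPS, SeV, cGAMP and CpGB, so number and kind of ligand are mixed. In backgrounds without another of them the median Batf2 change was 2.78 with LPS, 2.17 with SeV, 2.12 with cGAMP and 1.67 with CpGB. With another it was 0.40, -0.0015, -0.24 and -0.06. Number and kind of ligand were not tested apart. Without replicate 3 of every group the cGAMP difference was not called (adjusted p = 0.187), and without replicate 2 that of CpGB was not (0.122). The other members called with LPS were Batf3 (difference 2.57, adjusted p = 0.00325), Jun (2.10, 0.0291), Fosl2 (1.39, 0.0307), Junb (-0.65, 0.0357) and Fos (1.56, 0.0467), with CpGB Junb (-0.86, 0.0028) and Batf3 (1.92, 0.0363) and with SeV Jund (1.21, 0.0404). Each of these was lost in at least 1 alternative that left out 1 replicate number of every group, except Junb with CpGB, which was lost with thinned libraries (0.356, and 0.387 with the same genes tested). With thinned libraries the Batf2 differences with SeV (0.552) and CpGB (0.606) were lost as well.

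**Figure D5:**
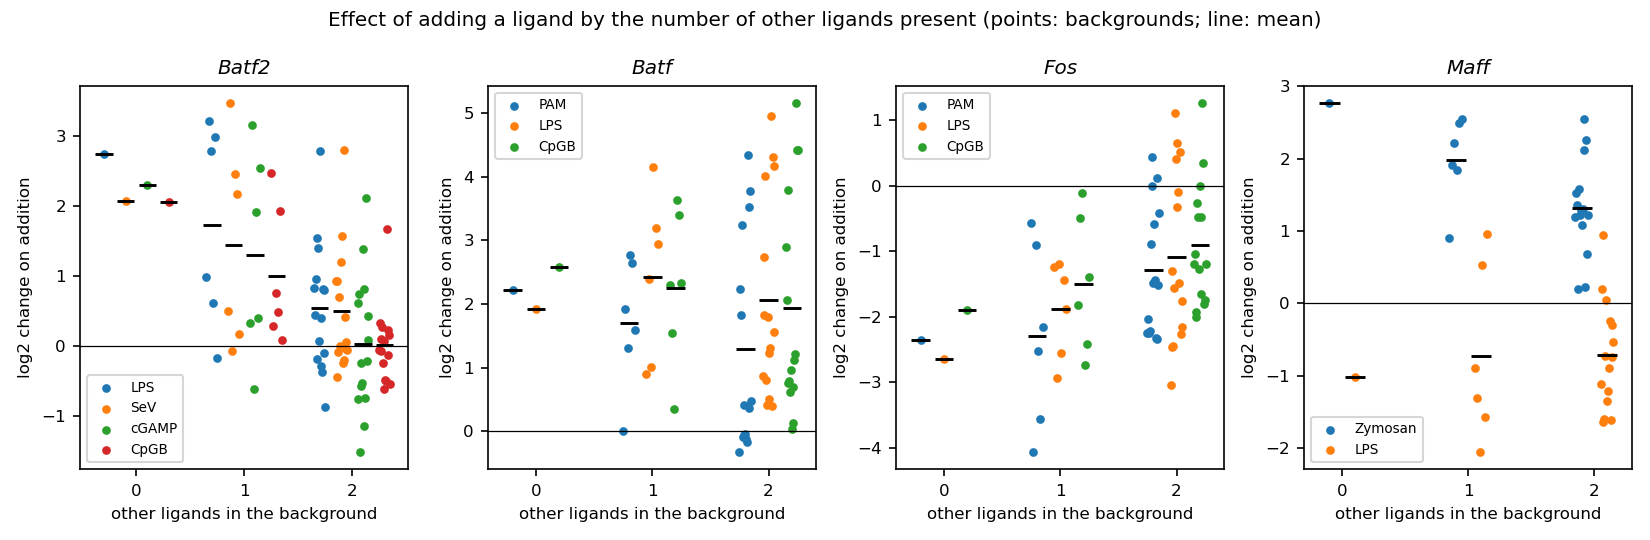
Log2 change of Batf2, Batf, Fos and Maff on the addition of a ligand, by the number of other ligands in the background (0, 1 or 2); each point is 1 background and the black line is the mean. The Batf2 effects of LPS, SeV, cGAMP and CpGB run from means of 2.06 to 2.75 with 0 other ligands to means of 0.01 to 0.55 with 2. Backgrounds of 2 ligands more often hold another of LPS, SeV, cGAMP and CpGB, so number and kind of ligand are mixed.

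A pair was asked to exceed both of its ligands given singly, with a log2 fold change of 1 or more over each and an adjusted p under 0.05 for the weaker comparison. Of 210 member tests 1 met this rule (0.353% of all gene tests did): Batf2 in HMW + Zymosan, with 50.9, 59.0 and 80.3 CPM. HMW alone gave 16.6, 8.97 and 18.6 CPM and Zymosan alone 18.4, 19.2 and 23.3 CPM, all under the 3 libraries of the pair. The smaller of both log2 fold changes was 1.63 (adjusted p = 0.0363). DESeq2 called no pair, 20 member tests had an unadjusted p under 0.05, and the call was lost without replicate 2 or replicate 3 of every group. Atf3 exceeded both singles by less than the fold threshold in PAM + cGAMP (smaller log2 fold change 0.72, adjusted p = 0.000268). It did so too in Zymosan + CpGB (0.64, 0.00266) and Zymosan + cGAMP (0.56, 0.014). Junb did so in PAM + SeV (0.71, 0.00475), PAM + cGAMP (0.68, 0.00574), PAM + LPS (0.65, 0.00646) and Zymosan + cGAMP (0.60, 0.0247). No member of any pair lay below both singles (0.0504% of all gene tests, 5 member tests at an unadjusted p under 0.05, 0 by DESeq2). No triplet exceeded all 3 of its pairs (0.0115% of all gene tests, 2 at an unadjusted p under 0.05, 0 by DESeq2) or lay below them (0% of all gene tests, 0 at an unadjusted p under 0.05, 0 by DESeq2).

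Over the 64 groups, the genes whose mean log2 CPM was most like that of a member were taken by Pearson's r among 4500 genes that averaged 20 CPM or more. For Batf they were Ebi3 (r = 0.93), a subunit of cytokines of the IL-12 family, Ccl22 (r = 0.89), a chemokine, and Mapkbp1 (r = 0.88). For Batf2 they were Nod1 (r = 0.94), a cytosolic peptidoglycan sensor, Casp1 (r = 0.91), the inflammasome protease, and Ms4a4c (r = 0.91). For Maff they were Sqstm1 (r = 0.88), an autophagy receptor, Pgk1 (r = 0.86), a glycolytic enzyme, and Ero1l (r = 0.86). Fos was most like Nceh1 (r = 0.86), Dock2 (r = 0.85) and Fabp5 (r = 0.84), a fatty acid-binding protein that was also second for Jun (r = 0.74). Junb was most like Tnf (r = 0.80), the inflammatory cytokine, Fosl2 like Flrt3 (r = 0.80) and Atf3 like Mafk (r = 0.74), a small Maf gene. The nearest genes of Jun, Plau (r = 0.76), of Jund, Lcp1 (r = 0.67), and of Batf3, Gusb (r = 0.67), were less close than those of Batf, Batf2 and Maff. Among the members, Fos and Jun correlated at 0.63 and Jun and Batf at -0.65. These r values have n = 64 groups that share ligands, and they say nothing of shared control.

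Lists of related genes were counted with the single ligands. Of 33 other bZIP genes 17 were tested. With LPS 2 were higher and 2 lower, with PAM 2 and 1, with CpGB 2 and 1, with Zymosan 1 and 2, with SeV 1 and 1, with cGAMP 1 and 1 and with HMW 0 and 0. In both directions together this was 23.5% of the list with LPS, 17.6% with PAM, CpGB and Zymosan, and 11.8% with SeV and cGAMP. Over all genes it was 24.2% with LPS, 13.9% with PAM, 17% with CpGB, 6.25% with Zymosan, 15.6% with SeV and 17.6% with cGAMP. On 17 genes these shares are near those of all genes, apart from Zymosan, where 3 genes were called. The list's median log2 fold change lay between -0.36 and 0.16 over the 7 ligands, and that of all genes between -0.09 and 0.03. Cebpd, a C/EBP factor of acute inflammation, rose with PAM (log2 fold change 2.45, SE 0.45, adjusted p = 4.08e-06), Maf rose with CpGB (2.40, SE 0.35, adjusted p = 2.54e-09) and fell with Zymosan (-1.78, SE 0.61, adjusted p = 0.045), and Mafk, a small Maf partner like Maff, rose with cGAMP (2.01, SE 0.45, adjusted p = 0.0002).

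Of 31 genes of the MAP kinase cascade and its phosphatases 17 were tested. With cGAMP 4 were higher and 1 lower, with LPS 3 and 1, with CpGB 3 and 1, with PAM 2 and 1, with SeV 2 and 1, with Zymosan 1 and 0 and with HMW 0 and 0. As shares of the list these were 29.4%, 23.5%, 23.5%, 17.6%, 17.6%, 5.88% and 0%, near the shares of all genes given above with LPS, PAM, SeV and Zymosan. With cGAMP 5 of 17 and with CpGB 4 of 17 were called, against 17.6% and 17% of all genes, a difference of 1 or 2 genes. The list's medians lay between -0.01 and 0.28. Mapkapk2, the kinase downstream of p38 that stabilises cytokine transcripts, rose with cGAMP, with 511 ± 60.4 CPM in Ctrl and 1567 ± 55.2 CPM with cGAMP (1.60, SE 0.15, adjusted p = 2.50e-20), and also with PAM, CpGB and LPS. Map2k1, a kinase of the ERK branch, rose with LPS (1.54, SE 0.30, adjusted p = 8.60e-06) and Dusp2, a nuclear phosphatase, with CpGB (1.82, SE 0.63, adjusted p = 0.0229). Dusp16, a phosphatase of JNK, rose with PAM, with 8.31 ± 14.4 CPM in Ctrl and 74.3 ± 18.2 CPM with PAM (2 UMIs in Ctrl, ratio 9.41, 95% counting interval 2.44 to 80.5, adjusted p = 0.000762). Of 16 immediate-early genes 10 were tested, and with LPS 2 were higher and 1 lower, with Zymosan 2 and 0, with cGAMP 2 and 0, with PAM 1 and 1, with CpGB 1 and 1, with SeV 1 and 0 and with HMW 0 and 0. On 10 genes these calls of 0 to 3 per ligand are too few to set apart from the shares of all genes. The medians lay between 0.12 and 0.55. Egr2 fell with LPS (-2.60, SE 0.62, adjusted p = 0.000282), as did Fos, and also with PAM and CpGB. Ier3 rose with Zymosan (2.12, SE 0.52, adjusted p = 0.00221). Egr1 rose with Zymosan, with 12.0 ± 2.17 CPM in Ctrl and 85.2 ± 12.9 CPM with Zymosan (3 UMIs in Ctrl, ratio 7.31, 95% counting interval 2.33 to 36.9, adjusted p = 0.00235), and Klf4 with cGAMP, with 7.36 ± 6.53 CPM in Ctrl and 58.4 ± 29.2 CPM with cGAMP (2 UMIs in Ctrl, ratio 6.95, 95% counting interval 1.72 to 60.6, adjusted p = 0.00745).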

How the data were processed

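RNA of mouse bone marrow-derived dendritic cells was measured in 192 libraries of 64 groups. Per the labels' protocols, the authors made cDNA from total RNA by template switching, combined the cDNA of many wells, amplified and tagmented it and read it on a NextSeq. What they deposited are whole-number UMI counts per gene symbol, without normalization. Per the submitters' processing notes, BWA 0.7.15 and the genome build mm10 were used. The rule for collapsing UMIs, the handling of reads with several matches and the use of strand are not given in the sources used here. A UMI count is closer to a number of molecules than a read count is, but UMI counts of a few per library carry a large counting error.

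The counts were filtered with filterByExpr, which kept 4720 of 23481 genes and 95.7% of the UMIs, scaled with TMM factors and fitted in edgeR 4.0.16 (R 4.3.3) with 1 coefficient per group over all 64 groups, which left 128 residual degrees of freedom and a common biological coefficient of variation of 10.3%. Contrasts were tested by quasi-likelihood F-tests, with Benjamini-Hochberg adjustment over the 4720 genes. A call needed an adjusted p under 0.05 and a log2 fold change of at least 1, or 0.5 for averages over 22 backgrounds, their differences and the contrasts of pairs minus alone. Tests of averages, their differences and pairs minus alone could not be fitted for 22 to 80 genes, standard error above 10, none of them a member; these count as not called. Standard errors are the size of the log2 fold change divided by the square root of F. DESeq2 1.42.0, other scalings, no filter, thinning to equal totals, left-out libraries, separate fits and a replicate block were alternatives. The scripts were tested on simulated data.

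Groups came from the labels. The replicate numbers were not treated as pairs. No 2 libraries of a group agreed within sampling noise (lowest chi-square per degree of freedom 1.11). The 10 genes were named as a list, and the further lists, the 4 genes named per list (those with the largest log2 fold change with a single ligand among the called) and the 3 genes most like a member followed rules (1 gene so chosen is not reported here); members, lists and rules were chosen with earlier results of these data known. Gene positions came from GENCODE on GRCm38 and promoters from RefSeq.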

Additional observations from a re-analysis of the deposited data

How the results depend on the processing

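Counting calls among the 10 genes, no result changed direction under any alternative that was run, and HMW stayed at 0 calls alone. Thinning each library to the lowest total left 6 of the 10 genes testable, without Fos, Jun, Jund and Batf3. Calls were then 1 with PAM, 1 with LPS, 0 with SeV, 1 with cGAMP and 1 with CpGB, against 5, 6, 2, 2 and 5. In all conditions 60 were higher and 10 lower (159 and 147 with full libraries), in matched additions 45 and 13 (102 and 79), on average 1 with PAM (4), and 0 pairs exceeded both singles (1). With the same genes tested, chosen after seeing the data, these were 1, 3, 0, 1 and 1, then 81 and 46, 38 and 16, with 0 pairs; averages gave no count there, since 18 tests of averages of Batf, Batf3, Fos or Jun could not be fitted, with standard errors above 10. The same held for averages of Batf with thinned libraries (3 tests) and without replicate 1 (2 tests), whose counts are left out. Few UMIs limit what can be called; the cause of the other lost calls was not tested.

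Fitting each ligand with Ctrl alone, where 3 to 5 of the genes passed the filter, gave 3 calls with PAM, 3 with LPS, 0 with Zymosan, SeV and cGAMP and 1 with CpGB; with the same genes tested, cGAMP had 1. With no filter on low counts Zymosan had 2, SeV 1, cGAMP 1 and the pairs 0. With library size alone cGAMP had 4, its average 2 and the pairs 0, with RLE factors its average had 2, and with DESeq2 its average had 2 and the pairs 0. The cause was not tested. Of the genes named as most like a member, 25 of 30 stayed with a prior count of 0.5 and 19 of 30 with library size alone.

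Leaving out 1 library, or 1 replicate number in every group, gave 3 to 5 calls with PAM, 1 to 2 with Zymosan, 0 to 2 with SeV, 0 to 2 with cGAMP, 2 to 6 with CpGB, 47 to 59 lower calls in matched additions, on average 2 to 4 with cGAMP, and 0 to 1 pairs. Fewer libraries give a test less power, but counts moved in both directions, and the cause of the falls and rises was not tested. With a replicate block 2 pairs exceeded both singles in place of 1, and none of the 247 single values changed its call. The labels do not say that a number marks shared material. Deviations of same-numbered libraries correlated weakly (mean r 0.0083 against -0.0041 for other numbers, and -0.015 to 0.030 for single ligands with Ctrl), but 87.0% of libraries correlated best with their own number, a hint from the data of a weak shared component.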
